A study of Mus musculus with 6 samples.

Results

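ATAC-seq peaks were examined at 7 genes through which osteoblasts control osteoclasts and respond to bone hormones: Tnfsf11, Tnfrsf11b, Csf1, Vdr, Pth1r, Lgr4 and Sema3a. The genes were taken as a named list. Peaks of the 6 libraries were joined into regions when they overlapped by at least 1 bp, and every region that overlapped the RefSeq span of a gene, extended by 100 kb at either end, was assigned to its locus. This gave 161 of the 89410 regions, or 0.180%. ATAC-seq maps open chromatin through the insertion of adapters by the transposase Tn5. The control group, OB Fam20c f/f, was an immortalized mouse osteoblast line that carries floxed alleles of Fam20c, which encodes a Golgi kinase of secreted proteins. The second group, OB Fam20c KO, was derived from that line with a lentivirus for Cre recombinase. Both groups were grown in the same medium and had 3 libraries each, so that the KO group stands for 1 derived line and the virus cannot be told apart from the loss of Fam20c. Whether the libraries of a group came from separate cultures was not stated, so p-values measure only the spread between these libraries.

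Osteoclasts resorb bone and form from precursors of the blood lineage under the control of osteoblast lineage cells. Tnfsf11 encodes RANKL, the cytokine that drives osteoclast formation, and Tnfrsf11b encodes osteoprotegerin, the soluble decoy receptor that binds it. Csf1 encodes M-CSF, which keeps the precursors alive, and Sema3a encodes a secreted semaphorin that restrains osteoclast formation. Vdr, the nuclear receptor for active vitamin D, and Pth1r, the receptor for parathyroid hormone, carry hormone signals that act on Tnfsf11 in osteoblasts through enhancers far from the gene. Lgr4 is a receptor for R-spondins that also binds RANKL.

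A peak is a stretch that MACS2 called in 1 library, and a missing peak means only that nothing there passed the threshold of the authors, not that the chromatin was closed. The lists differed in length. They held 64033, 62781 and 74797 peaks in f/f replicates 1 to 3, 64141 and 64582 in KO replicates 1 and 2, and 32958 in KO replicate 3. Of all regions 68.8% to 82.7% had a peak in an f/f library and 69.6% and 70.9% in KO replicates 1 and 2, against 35.8% in KO replicate 3, so that counts are also given without that library. Fam20c itself had a region over its start in all 6 libraries, which does not check the deletion. Of 8 osteoblast markers, Runx2 and Spp1 had a peak at their start in all 6 libraries and Alpl in 5, whereas the late markers Bglap and Ibsp had no peak within their span in any library. Of 7 osteoclast and blood cell markers, Cd68 had a peak at its start in all 6 libraries, and Tnfrsf11a, the receptor for RANKL, in KO replicates 1 and 2 only. For the other cell types, peaks at the start in all 6 libraries were found for 0 of 3 endothelial, 0 of 3 chondrocyte, 1 of 3 adipocyte and 0 of 2 muscle markers, and Tek, an endothelial receptor, had its peak in the 3 f/f libraries alone. The starts of 3 osteoblast, 2 osteoclast and blood cell, 2 endothelial, 2 chondrocyte and 1 of the muscle markers had no entry in the table of starts and count as not found. Within their spans, the osteoblast markers other than Bglap and Ibsp had peaks in all 6 libraries. So did all 3 endothelial and all 3 chondrocyte markers, Spi1, Cd68 and Cebpa. Peaks within spans thus did not tell these cell types apart.

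The listed gene starts were divided into those with a peak in all 6 libraries and those with none. Tnfrsf11b had no listed start and is left out here. Csf1, Vdr, Lgr4 and 1 of the 3 starts of Pth1r were covered by a region present in every library, and the single listed starts of Tnfsf11 and Sema3a and the other Pth1r starts were covered in none. The listed Sema3a start, at 13396784 on the plus strand, lay inside the gene span, which begins at 13124822. The 5′ end of that span was not examined as a start. Of 21262 starts of protein-coding genes, 50.4% had a peak in all 6 libraries and 44.7% in none. The 250 bases before these starts are shown so that covered and uncovered starts can be read side by side. They are the RefSeq sequences of GRCm38.p6 (mm10 coordinates), written 5′ to 3′ on the strand of the gene, with motif matches in capitals. The uncovered starts shown first are Tnfsf11 (chr14:78308044-78308293, minus strand) and Sema3a (chr5:13396534-13396783, plus strand).
Tnfsf11: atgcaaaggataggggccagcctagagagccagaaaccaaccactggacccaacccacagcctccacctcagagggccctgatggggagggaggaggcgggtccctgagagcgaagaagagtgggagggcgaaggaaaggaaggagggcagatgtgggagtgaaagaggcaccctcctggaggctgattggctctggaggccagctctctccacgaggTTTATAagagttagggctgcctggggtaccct
Sema3a: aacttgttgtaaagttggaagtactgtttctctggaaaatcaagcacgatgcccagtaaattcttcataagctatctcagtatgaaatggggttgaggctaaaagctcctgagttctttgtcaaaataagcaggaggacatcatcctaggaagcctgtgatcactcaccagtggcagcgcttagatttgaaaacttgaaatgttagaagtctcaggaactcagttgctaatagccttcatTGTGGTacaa
The covered starts of Csf1 (chr3:107760470-107760719), Vdr (chr15:97908297-97908546) and Pth1r (chr9:110742611-110742860), all on the minus strand, and of Lgr4 (chr2:109917397-109917646, plus strand), followed these sequences.
Csf1: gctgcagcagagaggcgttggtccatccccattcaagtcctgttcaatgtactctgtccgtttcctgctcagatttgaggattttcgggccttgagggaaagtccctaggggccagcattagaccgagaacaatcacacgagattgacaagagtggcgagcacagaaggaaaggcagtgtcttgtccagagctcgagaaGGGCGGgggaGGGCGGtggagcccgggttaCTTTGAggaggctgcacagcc
Vdr: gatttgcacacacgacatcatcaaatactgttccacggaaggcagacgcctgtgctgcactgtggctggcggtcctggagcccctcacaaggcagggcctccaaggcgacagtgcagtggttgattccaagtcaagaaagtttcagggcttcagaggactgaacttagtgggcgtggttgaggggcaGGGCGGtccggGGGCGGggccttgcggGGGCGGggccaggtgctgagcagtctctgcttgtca
Pth1r: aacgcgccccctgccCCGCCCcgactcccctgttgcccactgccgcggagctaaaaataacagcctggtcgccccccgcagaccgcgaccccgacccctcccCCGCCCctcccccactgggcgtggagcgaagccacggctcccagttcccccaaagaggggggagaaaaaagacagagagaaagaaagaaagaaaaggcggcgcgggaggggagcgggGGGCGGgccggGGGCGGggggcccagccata
Lgr4: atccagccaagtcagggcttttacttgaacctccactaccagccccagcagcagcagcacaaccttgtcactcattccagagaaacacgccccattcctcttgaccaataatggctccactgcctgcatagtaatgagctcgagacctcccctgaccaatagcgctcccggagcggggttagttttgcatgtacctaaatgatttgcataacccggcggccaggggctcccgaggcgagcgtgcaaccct
A further Pth1r start, upstream of the covered one and with no peak in any library, is preceded by this sequence (chr9:110743687-110743936, minus strand).
Pth1r upstream start: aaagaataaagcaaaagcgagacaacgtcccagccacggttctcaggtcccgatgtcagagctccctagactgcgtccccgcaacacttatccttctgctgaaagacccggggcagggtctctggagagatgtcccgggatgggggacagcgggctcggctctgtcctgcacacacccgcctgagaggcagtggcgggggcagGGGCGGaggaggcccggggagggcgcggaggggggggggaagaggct

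Both strands were searched for 8 motifs, namely the TATA box TATAAA, the GC box GGGCGG, the RUNX motif TGTGGT, the AP-1 motif TGANTCA, the E-box CAGCTG, the TCF/LEF motif CTTTGA, the nuclear receptor half-site AGGTCA and the cAMP response element TGACGTCA. The Tnfsf11 sequence held 1 TATA box, which 11.6% of all 21262 promoter sequences hold, and no GC box. GC boxes, found in 42.6% of all promoters, numbered 2 at Csf1, 3 at Vdr, 4 at the covered Pth1r start and 1 at the upstream Pth1r start shown. Csf1 also held 1 TCF/LEF motif, found in 12.7% of promoters, and Sema3a held 1 RUNX motif, found in 12.4%. The AP-1, E-box, half-site and cAMP motifs, held by 6.13%, 12.1%, 12.8% and 1.92% of promoters, were not found in these windows, and neither they nor any other motif were found at Lgr4 or at the third Pth1r start, at position 110747145. The covered windows held 10 CpG at Csf1, 11 at Vdr, 10 at Lgr4 and 22 at Pth1r, against 4 at Tnfsf11 and 2 at Sema3a, with a median of 10 over all promoters. The uncovered Pth1r starts lay on both sides of that median, with 16 and 3 CpG. GC content ran from 40.8% at Sema3a, the lowest, to 70.4% at the covered Pth1r start, with 60.4% at Tnfsf11 and a median of 55.6%.

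The loci differed in how many regions they held. Vdr had 42 regions, Csf1 33, Pth1r 29, Sema3a 18, Tnfrsf11b 17, Lgr4 13 and Tnfsf11 9, against a median of 14 for protein-coding genes extended in the same way. Per 100 kb of window, Vdr had 16.5 regions, Csf1 15.0, Pth1r 12.9, Tnfrsf11b 7.46, Lgr4 4.38, Tnfsf11 3.90 and Sema3a 2.65. Vdr, Csf1 and Pth1r were thus the dense loci, and the long Sema3a span and the Tnfsf11 window were the sparse ones. Within the gene spans themselves lay 15 of the 18 regions of Sema3a but only 2 of 17 at Tnfrsf11b, 3 of 9 at Tnfsf11, 4 of 33 at Csf1, 7 of 42 at Vdr, 3 of 29 at Pth1r and 2 of 13 at Lgr4. Many regions outside the spans lay inside neighbouring genes, some of which are named below. At Csf1 many lay within Gm40121, which the region over the Csf1 start also overlapped. The region 3.66 kb beyond the 3′ end of Vdr lay within Gm33690.

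Of the 161 regions, 65 had a peak in all 6 libraries (40.4%, against 33.4% of all regions), 29 in all libraries but KO replicate 3, 25 in a single library, and 35 in other combinations. Group-specific regions, with a peak in 3 of 3 libraries of a group and in 0 of 3 of the other, were few. At the 7 loci 4 regions were f/f-only (2.48%, against a background of 3.75% of all regions) and 0 were KO-only (background 0.179%). Both shares were below the background, but with so few regions neither can be read as a departure from it. When the list of KO replicate 3 was left out, f/f-only regions numbered 4 and regions with a peak in KO replicates 1 and 2 and no f/f library numbered 3, and without f/f replicate 1, f/f replicate 2 or KO replicate 2 the f/f-only regions numbered 8, 9 and 7. With the 32958 highest peaks taken from each list, 0 regions were f/f-only (background 2.83%) and 2 were KO-only (background 2.59%), both at the Vdr locus. The group-specific counts at these loci thus depended on how many peaks were taken from each list. The f/f peaks of the 4 f/f-only regions all fell below that cut, so the count of 0 says nothing of those regions in KO.

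**Figure D1:**
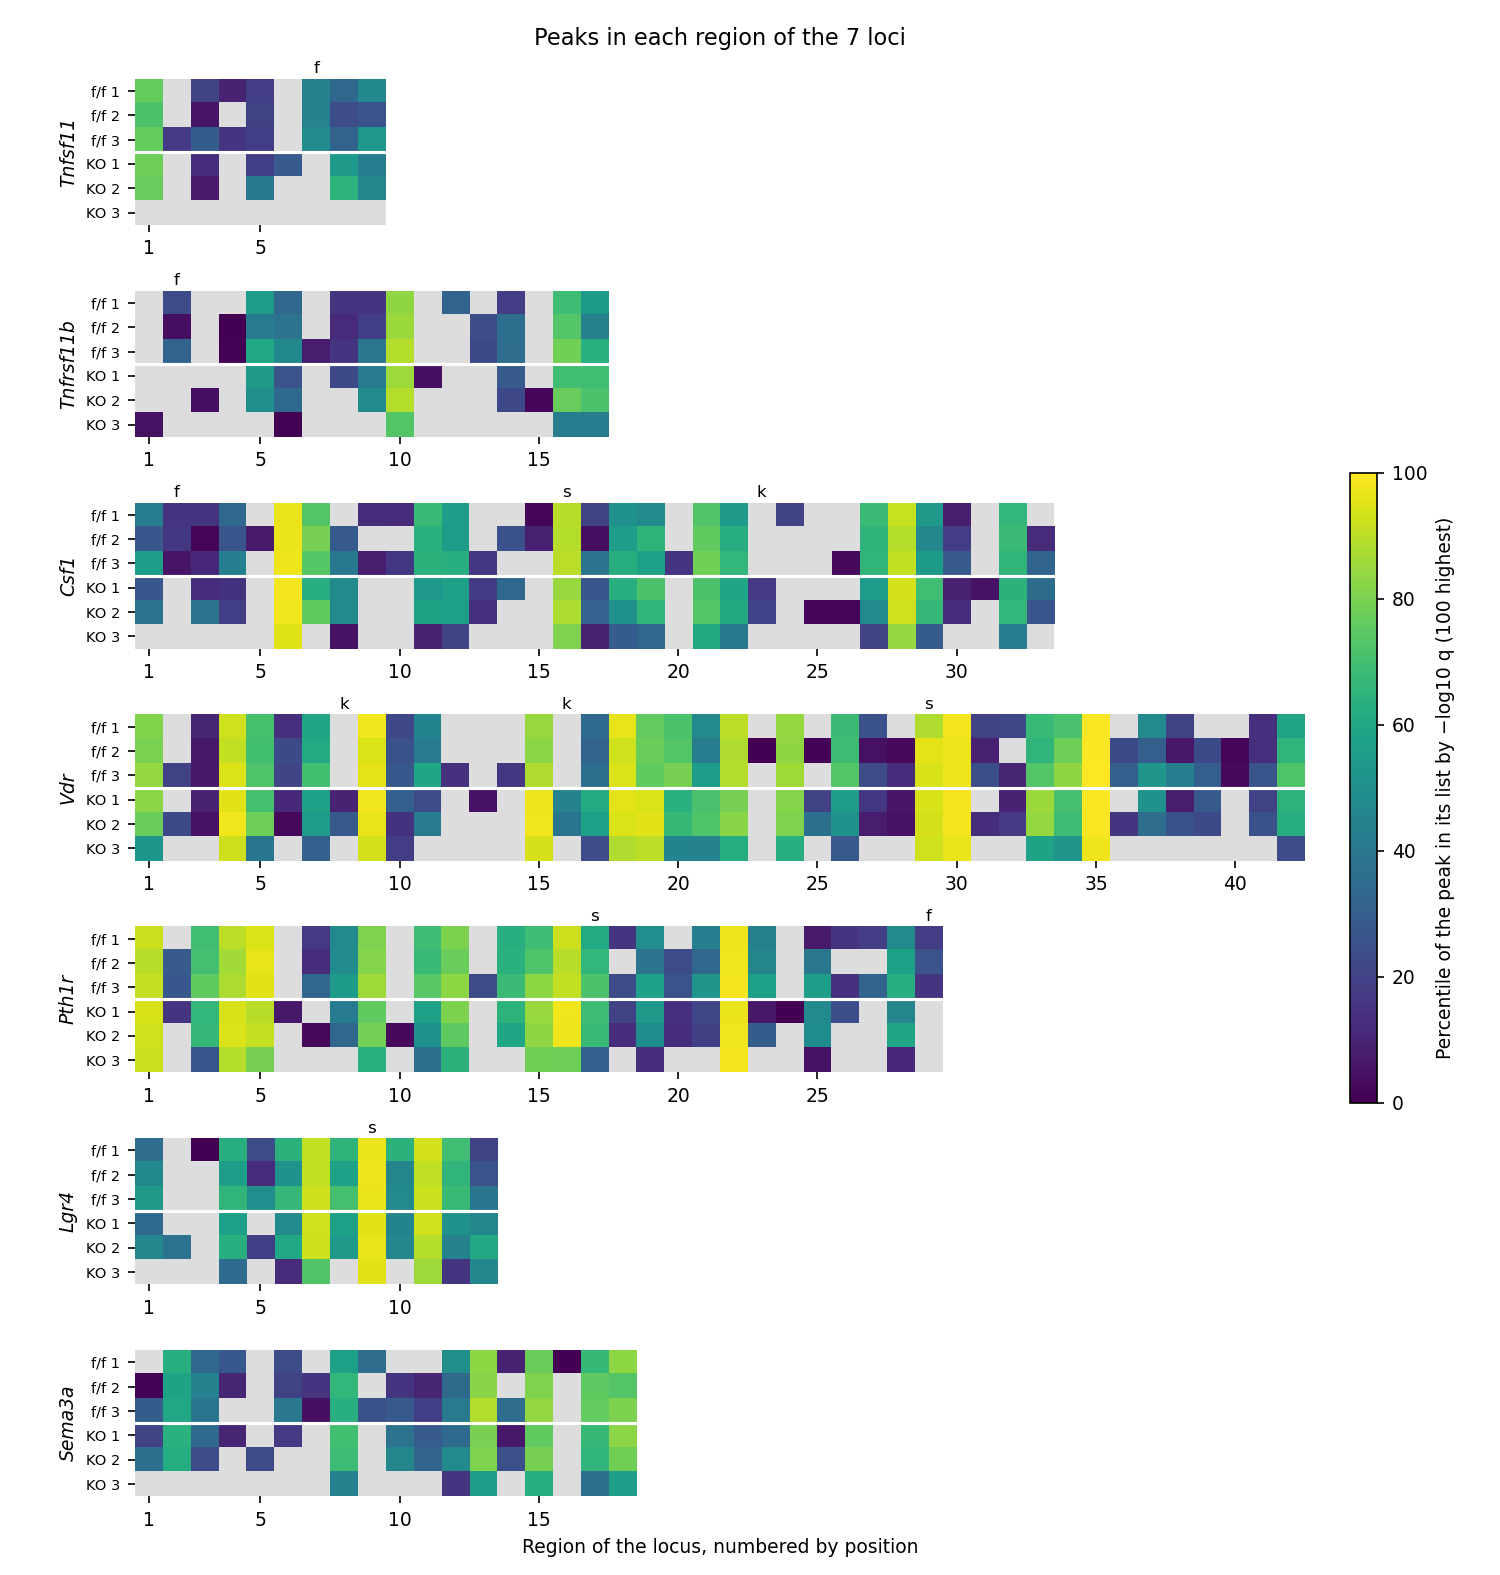
Presence and standing of peaks in the 161 regions of the 7 loci, with regions in order of position on the x axis and the 6 libraries on the y axis. Colour gives the percentile of the region's highest peak in its own list by −log10 q, grey marks no peak, f marks the 4 f/f-only regions, k the 3 regions with a peak in KO replicates 1 and 2 only, and s the 4 regions over a listed start. The row of KO replicate 3 is the emptiest at each locus, and the f and k regions have percentiles of 48.1 or lower.

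Regions with a peak were counted per locus and library. Tnfsf11 had 7, 6 and 8 regions with a peak in f/f replicates 1 to 3 and 6, 5 and 0 in KO replicates 1 to 3. The groups overlapped, since f/f replicate 2 and KO replicate 1 both had 6, and KO replicate 3 was the lowest (difference of means −3.33, exact permutation test, two-sided, p = 0.2). Tnfrsf11b had 10, 11 and 12 in f/f and 9, 9 and 5 in KO. This was the one locus where every KO library was below every f/f library (difference −3.33, p = 0.1 by the exact permutation test, the smallest that 3 libraries against 3 can give), also with KO replicate 3 left out, when the difference was −2. Of 19612 protein-coding genes with a region, 15.7% had every KO library below every f/f library, so the pattern at Tnfrsf11b was common. With equal numbers of peaks from each list the counts at Tnfrsf11b became 4, 2 and 4 in f/f and 4, 4 and 5 in KO, and the difference turned to 1.00 in the other direction.

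Csf1 had 23, 24 and 26 regions with a peak in f/f and 24, 24 and 14 in KO, and Sema3a had 13, 14 and 15 in f/f and 14, 13 and 6 in KO. Pth1r had 23, 22 and 26 in f/f and 24, 22 and 14 in KO. Lgr4 had 12, 11 and 11 in f/f and 10, 12 and 7 in KO. At these loci KO replicate 3 alone was below the f/f libraries, apart from KO replicate 1 at Lgr4, and the exact permutation p was 0.6 for Csf1 and 0.5 for Sema3a, Pth1r and Lgr4. Vdr had 30, 35 and 37 in f/f and 35, 37 and 21 in KO (exact permutation p = 0.9), and its difference of −3 became 2 without KO replicate 3. With equal numbers of peaks, Vdr had 18, 18 and 19 in f/f and 21, 20 and 21 in KO, with no overlap (difference 2.33, exact permutation p = 0.1), a pattern of higher KO counts shown by 5.95% of protein-coding genes. No locus could reach a p below 0.1 in this design.

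**Figure D2:**
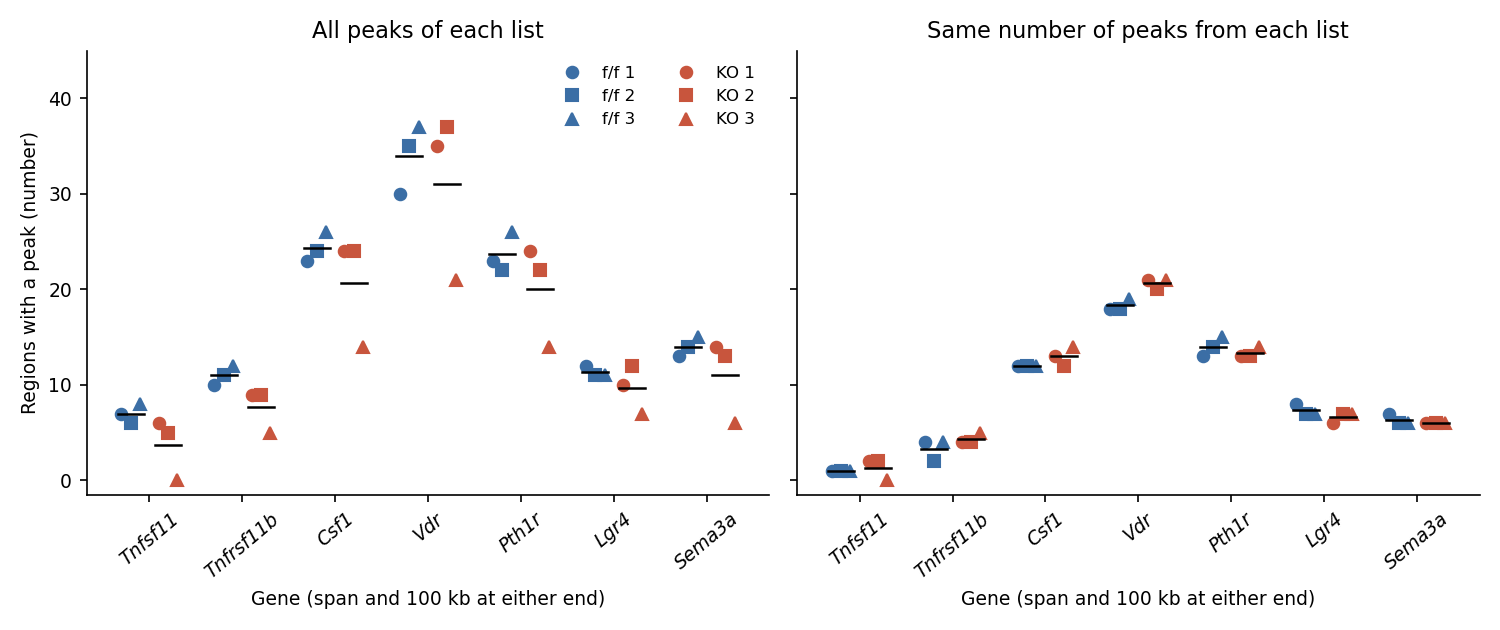
Number of regions with a peak at each locus (y axis), per library, for f/f (blue) and KO (red), with black bars for the group means (n = 3). On the left, with all peaks, KO replicate 3 is the lowest at each locus, and on the right, with 32958 peaks from each list, the groups lie close together, with Vdr at 18 to 19 in f/f and 20 to 21 in KO.

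For regions shared by all 6 libraries, the groups were compared by rank, since the −log10 q of a peak depends on the depth of its library. The shared percentile of a region is its place by −log10 q among the 29849 regions that all 6 libraries shared, with 100 the highest. Ranks were turned into normal scores and tested with limma over all 29849 regions, with a Benjamini-Hochberg adjusted p under 0.05 as a call, and differences below are KO minus f/f in normal scores ± SE. Of the 65 shared regions at the 7 loci, 11 stood higher in KO (16.9%, background 13.6%) and 7 lower (10.8%, background 12.4%), with a median difference of 0.00523 normal scores at the loci and −0.0175 over all regions. Both shares lay near the background. Without KO replicate 3, 93 regions at the loci could be compared, and 15 stood higher (16.1%, background 12.7%) and 8 lower (8.60%, background 12.6%). Ranked by the fold over the local background in place of −log10 q, all 18 called regions had the same direction, but 3 of the 11 higher and 2 of the 7 lower were still called, and the count of calls over all regions dropped from 7772 to 1003. Those 5 were 3 regions at the Vdr locus and both called regions at the Lgr4 locus.

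**Figure D3:**
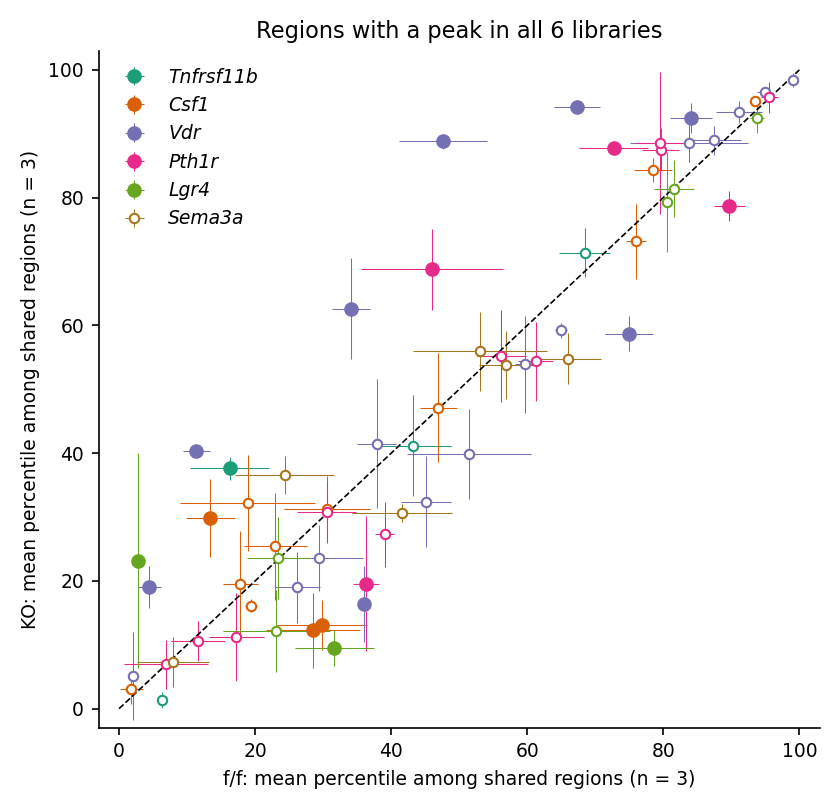
Mean shared percentile in f/f (x axis) and KO (y axis) of the 65 shared regions, coloured by locus, with SD as error bars (n = 3 libraries per group). Filled points are the 18 regions called by limma, the dashed line marks equal standing, and Tnfsf11 has no such region. The points farthest above the line are regions of the Vdr locus, at 47.6 in f/f and 88.8 in KO and at 11.3 and 40.3.

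Tnfsf11, which encodes RANKL, lay on chromosome 14 (78277446 to 78308043) in a sparse window where KO replicate 3 had no peak at all, so that no region could be ranked in all 6 libraries. The nearest regions to its start were 3 weak ones inside the gene, 15.3 to 19.9 kb downstream of the start, of which chr14:78289992-78290425 was found in all libraries but KO replicate 3, at list percentiles of 5.62 to 29.3, where a list percentile is the place of the highest peak of the region among all peaks of its library. The strongest region of the locus, 62.9 kb from the start beyond the 3′ end of the gene (chr14:78244806-78245404), had list percentiles of 76.3, 72.0 and 76.4 in f/f and 77.8 and 76.7 in KO replicates 1 and 2. Both KO values were above the 3 f/f values, but by little, and the difference did not pass the test (5 libraries, limma adjusted p = 0.395).

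Upstream of Tnfsf11, where the gene has far enhancers that respond to vitamin D and parathyroid hormone, 5 regions lay between 39.95 and 90.1 kb from the start. The f/f-only region of the locus (chr14:78375666-78376608), 68.1 kb upstream, had list percentiles of 43.9, 44.3 and 48.1 and folds over the local background of 7.76, 5.85 and 7.50 in f/f replicates 1 to 3, and no peak in any KO library. Of the 4 f/f-only regions it had the highest percentile in every f/f library. Its own f/f peaks were not among the highest 32958 of their lists. The setting with equal peak numbers thus says nothing of this region in KO.

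The neighbouring region 75.4 kb upstream (chr14:78383119-78383744) had list percentiles of 33.9, 23.7 and 32.0 in f/f and 53.8 and 64.5 in KO replicates 1 and 2, with no peak in KO replicate 3. Its folds were 6.30, 3.99 and 5.24 in f/f and 9.55 and 13.1 in KO. Both KO values were above the 3 f/f values on each scale. Among the regions shared by those 5 libraries, the mean percentile was 11.2 in f/f and 44.96 in KO replicates 1 and 2 (difference 1.12 ± 0.216, limma adjusted p = 0.000905). This test leaves out KO replicate 3, which had no peak there, so the higher standing holds for KO replicates 1 and 2 only. The regions 39.95 and 90.1 kb upstream overlapped between the groups (adjusted p = 0.26 and 0.671 in the 5 libraries), and the region 44.98 kb upstream had a peak in KO replicate 1 only.

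**Figure D4:**
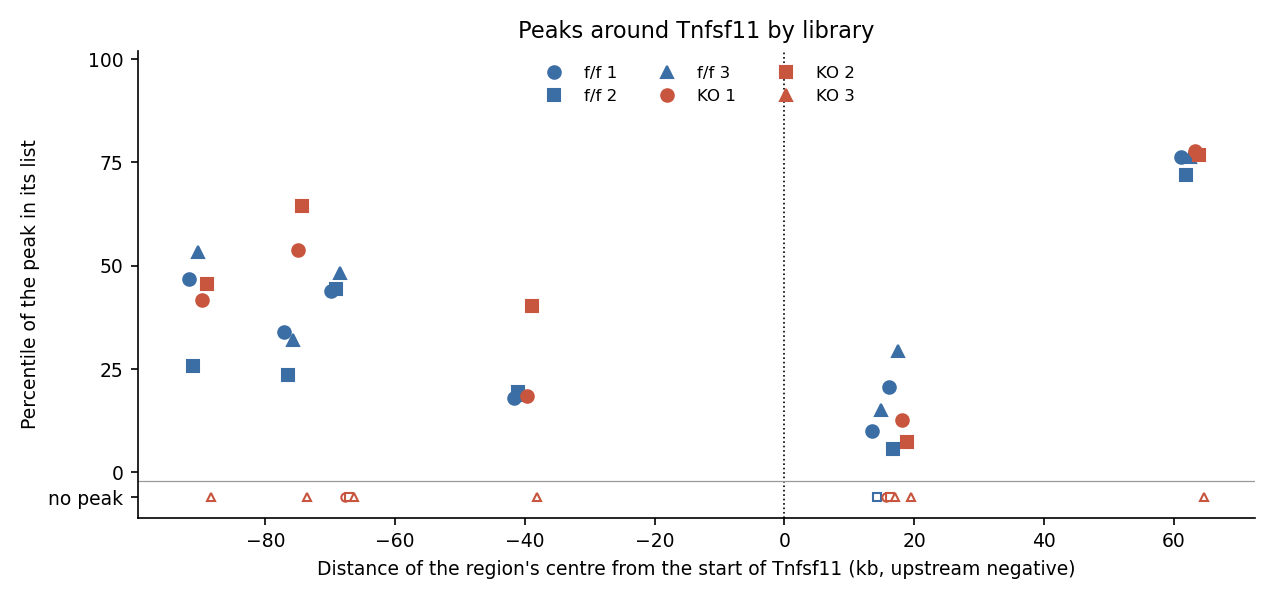
Peaks around Tnfsf11 by distance of the region's centre from the start (x axis, kb, upstream negative) and percentile in the list of each library (y axis), for the 7 regions with a peak in more than 1 library. Open symbols at the bottom mark no peak, and symbols of a region are set side by side. KO replicate 3 is open throughout, the region 68.1 kb upstream is filled in f/f only, and at 75.4 kb upstream both KO symbols lie above the 3 f/f symbols.

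Tnfrsf11b, the decoy receptor gene, lay on chromosome 15 (54250619 to 54278484). Neither its strand nor its start was listed, so that either end of the span could be its start. Its strongest region covered the right end of the span (chr15:54277883-54279394), with shared percentiles of 64.5, 68.6 and 72.1 in f/f and 68.2, 75.7 and 70.4 in KO. The groups overlapped (difference 0.0862 ± 0.116, limma adjusted p = 0.617). The other region in the gene (chr15:54258594-54259407) had list percentiles of 15.4, 18.6 and 39.9 in f/f and 41.2 and 48.4 in KO replicates 1 and 2. KO replicate 3 had no peak there, and over the 5 other libraries the mean percentile was 7.88 in f/f and 27.6 in KO (difference 0.857 ± 0.254, adjusted p = 0.0178).

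At a distance from Tnfrsf11b, the region 84.1 kb beyond the right end (chr15:54362598-54363554) had shared percentiles of 18.3, 9.74 and 20.7 in f/f and 36.0, 39.5 and 37.3 in KO. Every KO library was above every f/f library, with means of 16.2 ± 5.76 (SD, n = 3) and 37.6 ± 1.76 (difference 0.690 ± 0.160, adjusted p = 0.00635 with limma), but ranked by fold the region was not called (adjusted p = 0.797). The f/f-only region of this locus (chr15:54166100-54166690), 83.9 kb beyond the left end, had list percentiles of 23.0, 3.60 and 32.0. In the flanks within 1 Mb of the gene, its own locus left out, 3 of 37 shared regions stood higher in KO and 10 lower, with a median difference of −0.240, so the regions of Tnfrsf11b lay in a stretch of chromosome 15 where lower standing in KO was the more frequent call.

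Csf1, the M-CSF gene on chromosome 3 (107741048 to 107760469), had a region over its start (chr3:107759789-107760922) with shared percentiles of 77.1, 76.5 and 74.2 in f/f and 67.1, 73.7 and 78.7 in KO. The f/f values lay within the range of the KO values (difference −0.0810 ± 0.118, limma adjusted p = 0.648). The highest region of the locus by mean list percentile lay in the neighbouring gene Ahcyl1, 64.0 kb downstream of the start, at shared percentiles of 93.3 to 93.5 in f/f and 94.6 to 95.9 in KO, and was not called (adjusted p = 0.291). Without KO replicate 3, a region 15.3 kb upstream was also called higher in KO, with means of 39.2 and 57.4 (adjusted p = 0.0395), against 0.0924 with 6 libraries.

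At the Csf1 locus 1 region stood higher in KO and 2 lower. The region 80.5 kb upstream (chr3:107840386-107841609) had shared percentiles of 17.6, 11.2 and 11.5 in f/f and 35.7, 30.1 and 23.7 in KO (difference 0.581 ± 0.166, limma adjusted p = 0.0195). The region 62.8 kb upstream (chr3:107822821-107823682) had 36.1, 30.7 and 22.9 in f/f and 15.6, 8.53 and 15.0 in KO (difference −0.604 ± 0.173, adjusted p = 0.0195), and the region 22.6 kb downstream of the start, just beyond the 3′ end of the gene (chr3:107737557-107738181), had 35.3, 28.8 and 21.5 in f/f and 13.8, 17.2 and 5.80 in KO (difference −0.627 ± 0.194, adjusted p = 0.0283). The groups did not overlap at any of the 3, and none was called by fold. Each call was lost when some single libraries were left out. The 80.5 kb region had adjusted p values of 0.0607 to 0.0835 without f/f replicate 2, f/f replicate 3, KO replicate 1 or KO replicate 2. The 62.8 kb region had 0.0721 to 0.0921 without f/f replicate 1, f/f replicate 2 or KO replicate 2. The region at 22.6 kb had 0.124, 0.0898 and 0.164 without f/f replicate 1, f/f replicate 2 and KO replicate 3, where its difference became −0.267.

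The group-specific regions of Csf1 were weak. Its f/f-only region (chr3:107659132-107659448), 101 kb downstream of the start, had list percentiles of 15.4, 16.1 and 5.82, and the region 42.2 kb upstream with a peak in KO replicates 1 and 2 only (chr3:107802441-107802803) had 16.6 and 20.1. Of all 89410 regions, 2.72% had a peak in those 2 libraries alone, and of the 161 at the loci 3 had (1.86%). The other 2 lay at the Vdr locus, with list percentiles of 9.48 and 27.9 for chr15:97780544-97781026 and of 44.2 and 38.9 for chr15:97819982-97820270, the second of them inside Hdac7.

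Sema3a, the semaphorin gene on chromosome 5 (13124822 to 13603485), had 18 regions and none called in either set of libraries. Its nearest region to the listed start, 2.94 kb downstream (chr5:13398813-13400627), had shared percentiles of 21.0, 32.7 and 19.4 in f/f and 36.7, 33.6 and 39.5 in KO. Every KO library was above every f/f library, but the difference did not pass (0.363, limma adjusted p = 0.0918). The highest region by mean list percentile lay 81.1 kb downstream, inside the gene, with 64.1, 62.5 and 71.5 in f/f and 55.8, 58.2 and 50.3 in KO. There every KO library was below every f/f library, again short of the threshold (difference −0.296, adjusted p = 0.0848). The region farthest upstream with a peak in 5 libraries, 247 kb before the listed start and still inside the span, had list percentiles of 57.9 to 62.8 in f/f and 63.8 and 61.8 in KO replicates 1 and 2.

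Vdr, the vitamin D receptor gene on chromosome 15 (97854427 to 97908296), had the most shared regions, 21, and the most called, 6 higher and 2 lower. Over all shared regions 13.6% stood higher and 12.4% lower. Most of the 6 higher regions lay inside the neighbouring genes Hdac7 and Rapgef3. The start of Vdr (chr15:97906926-97908764) had shared percentiles of 74.5, 91.7 and 85.1 in f/f and 87.4, 86.3 and 91.9 in KO, and the groups overlapped (difference 0.185 ± 0.159, limma adjusted p = 0.418). A region 6.13 kb upstream stood at 93.8 to 96.0 in f/f and 96.0 to 96.8 in KO and was not called (adjusted p = 0.272). The highest region of the locus lay in Tmem106c, 55.9 kb upstream, at 97.2 to 99.4 in the 6 libraries (adjusted p = 0.375). A further 6 regions of the window, upstream of Vdr, lay in Col2a1, a chondrocyte marker, and none was called.

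Within Vdr or upstream of it 2 regions differed. Inside the gene, 20.5 kb downstream of the start (chr15:97887291-97888404), shared percentiles were 36.0, 36.0 and 35.8 in f/f and 15.7, 10.8 and 22.6 in KO. Every KO library was below the f/f libraries, with means of 35.9 ± 0.112 (SD, n = 3) and 16.4 ± 5.93 (difference −0.638 ± 0.159, adjusted p = 0.00941, and 0.0496 ranked by fold). Upstream at 30.5 kb (chr15:97938354-97939252), they were 35.2, 31.0 and 36.2 in f/f and 68.1, 66.2 and 53.5 in KO, and every KO library was above every f/f library (difference 0.735 ± 0.134, limma adjusted p = 0.00135, and 0.246 by fold).

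The largest differences of the Vdr window lay inside its neighbour Hdac7, a histone deacetylase gene downstream of Vdr. The region chr15:97830363-97832867, 76.7 kb from the Vdr start, had shared percentiles of 49.4, 52.9 and 40.4 in f/f and 87.5, 89.9 and 89.1 in KO, with folds of 4.99, 4.31 and 4.09 in f/f and 8.28, 8.40 and 6.21 in KO. Its difference of 1.28 ± 0.118 was the largest of the 65 regions (limma adjusted p = 6.37e-06, and 0.0373 by fold). With fixed windows around summits, no part of this merged region of 2505 bp had a peak in all 6 libraries. It could not be ranked under that setting. The region chr15:97811774-97813918 had 67.4, 63.9 and 70.6 in f/f and 94.3, 95.2 and 93.1 in KO (difference 1.13 ± 0.110, adjusted p = 1.04e-05, and 0.124 by fold). In both, the 3 KO libraries were above the 3 f/f libraries by more than 20 percentile points.

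Smaller differences in the same neighbour were seen at chr15:97839582-97841047, with means of 11.3 in f/f and 40.3 in KO (adjusted p = 0.000379 with limma), and at chr15:97821295-97821976, with 4.44 and 19.02 (adjusted p = 0.00749). These were the 2 regions that were KO-only among the highest 32958 peaks of each list. A region over Rapgef3, a cAMP-activated exchange factor gene 140 kb from the Vdr start, stood at 84.0 in f/f and 92.4 in KO (adjusted p = 0.0149), but was not called without f/f replicate 2 (0.0711) or KO replicate 2 (0.0919). The region chr15:97849248-97850770, 3.66 kb beyond the 3′ end of Vdr, stood lower in KO, with means of 74.95 and 58.7 (difference −0.456, adjusted p = 0.0094). A further region in Hdac7, chr15:97823954-97825962, lay between the regions that differed and stood at 84.9 to 91.9 in f/f and 86.8 to 91.3 in KO (adjusted p = 0.736).

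Around the Vdr locus lower standing in KO was the more frequent call. Of 72 shared regions in the flanks within 1 Mb of Vdr, with the regions of the locus left out, 8 stood higher in KO and 19 lower, with a median difference of −0.0998, against 6 higher and 2 lower of 21 at the locus itself. On chromosome 15 as a whole, 15.5% of 2084 shared regions stood higher and 16.6% lower. Peaks were found in fewer regions of chromosome 15 in each f/f library than on the other chromosomes with members, at 52.7% to 65.6% of its regions against 64.4% to 87.5% on chromosomes 2, 3, 5, 9 and 14, and in KO replicates 1 and 2 they were 61.3% and 60.3% against 69.3% to 75.6%. The part of this in the counts at Tnfrsf11b and Vdr was not tested.

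**Figure D5:**
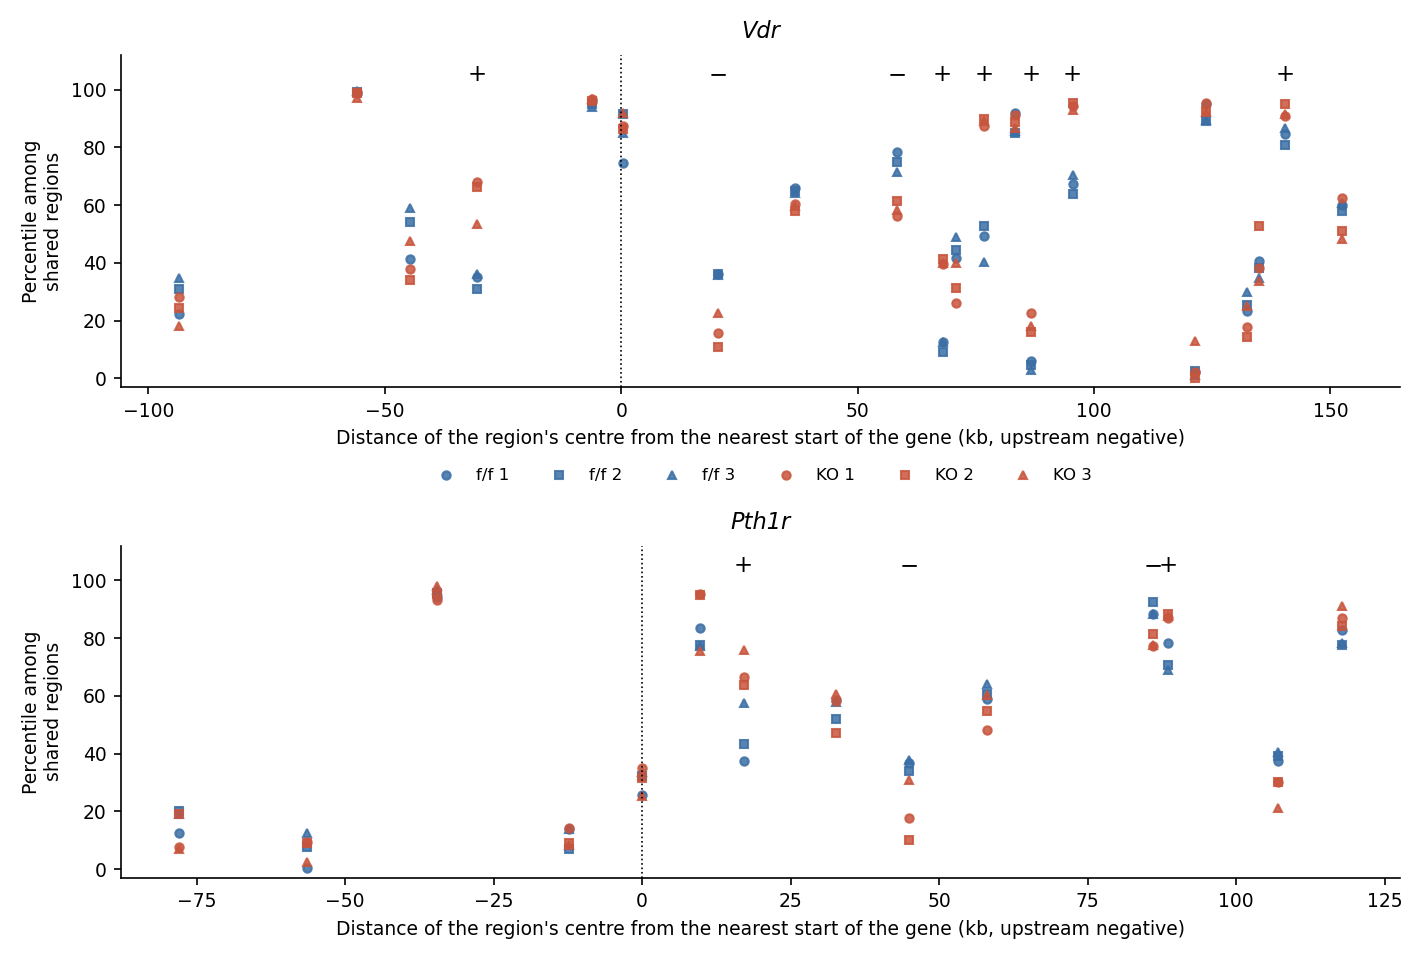
Shared percentile in each library (y axis, f/f blue, KO red) of the shared regions at the Vdr and Pth1r loci, by distance of the region's centre from the nearest listed start (x axis, kb, upstream negative). Plus and minus signs mark regions called higher or lower in KO by limma. At Vdr the plus signs between 68.0 and 95.5 kb lie inside Hdac7, and the start regions at 0.45 kb (Vdr) and 0.03 kb (Pth1r) show overlapping groups.

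Pth1r, the parathyroid hormone receptor gene on chromosome 9 (110722085 to 110747145), had a region over the most downstream of its 3 listed starts (chr9:110741796-110743367), with shared percentiles of 25.5, 32.2 and 33.8 in f/f and 34.9, 31.7 and 25.5 in KO. The groups had nearly the same mean, 30.5 ± 4.39 (SD, n = 3) and 30.7 ± 4.78 (difference 0.00552 ± 0.144, limma adjusted p = 0.983). This was the weakest of the 4 start regions. The highest region of the locus, 34.5 kb upstream, stood at 93.4 to 98.2 in the 6 libraries and was not called (adjusted p = 0.819). Of the 14 shared regions of the locus 2 stood higher and 2 lower.

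The region inside Pth1r 17.1 kb downstream of the start (chr9:110724607-110726440) had 37.3, 43.2 and 57.5 in f/f and 66.7, 63.8 and 75.9 in KO. Every KO library was above every f/f library (difference 0.598 ± 0.148, adjusted p = 0.00899 with limma), and without KO replicate 3 the difference was 0.383 with an adjusted p of 0.0176. The region 9.81 kb downstream (chr9:110732224-110733384) had 83.7, 77.5 and 77.3 in f/f and 95.2, 94.8 and 75.7 in KO. KO replicates 1 and 2 were above the f/f libraries and KO replicate 3 below them, so that the difference did not pass with 6 libraries (0.503 ± 0.2004, adjusted p = 0.0786) and passed without KO replicate 3 (0.729 ± 0.0968, adjusted p = 2.54e-05). Neither region was called by fold (0.334 and 0.243).

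Around Pth1r the other calls lay in neighbours. The region chr9:110653648-110654519, where Ccdc12 and Nbeal2 overlap, stood at 72.7 in f/f and 87.7 in KO (limma adjusted p = 0.00295), and a region of Ccdc12 close by (chr9:110656010-110657033) at 89.7 and 78.7 (adjusted p = 0.00715). These adjoining regions thus moved in opposite directions. A further region of Ccdc12 (chr9:110697106-110698085) stood at 36.3 in f/f and 19.6 in KO (adjusted p = 0.0397), but it was not called when f/f replicate 1, 2 or 3 or KO replicate 1 or 2 was left out (0.0726 to 0.170, with a difference of −0.361 without KO replicate 2). Without KO replicate 3, 2 more regions stood lower, 18.9 kb upstream in Myl3 (means 23.4 and 6.29, adjusted p = 0.0168) and 43.6 kb upstream (29.6 and 6.70, adjusted p = 0.00419). The f/f-only region of Pth1r, 94.6 kb upstream (chr9:110841522-110842037), had list percentiles of 18.0, 25.7 and 15.2.

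Lgr4, the R-spondin receptor gene on chromosome 2 (109917647 to 110014257), had its highest region over its start (chr2:109917217-109918384), with shared percentiles of 93.5, 94.9 and 93.0 in f/f and 90.7, 91.7 and 95.2 in KO. The groups overlapped (difference −0.0843 ± 0.120, limma adjusted p = 0.639). Its only other region inside the gene, 41.7 kb downstream of the start, had no peak in KO replicate 3 and list percentiles of 45.4 to 64.4 in f/f and of 44.99 and 46.2 in KO replicates 1 and 2. Both called regions of the locus lay beyond the 3′ end in Ccdc34, 157 and 163 kb from the start. The first (chr2:110074457-110075709) had 37.5, 31.4 and 26.0 in f/f and 11.5, 6.21 and 10.6 in KO (difference −0.847 ± 0.172, adjusted p = 0.00275, and 0.0271 by fold). The second (chr2:110080412-110080964) had 2.01, 2.77 and 3.55 in f/f and 8.02, 20.3 and 41.2 in KO (difference 1.11 ± 0.269, adjusted p = 0.00831, and 0.0438 by fold). The groups did not overlap at either, and the KO libraries varied most at the second, with an SD of 16.8, where the call also held without KO replicate 3 (adjusted p = 0.0036).

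At the 4 covered starts and at the right end of the Tnfrsf11b span the limma adjusted p ranged from 0.418 to 0.983. None was called in the 5 libraries without KO replicate 3 either (0.221 to 0.709). Of the 18 called regions, 2 lay inside a member gene, those of Vdr and Pth1r described above, and of the regions called without KO replicate 3, 4 did, namely those and the regions in Tnfrsf11b and 9.81 kb downstream of the Pth1r start.

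Other genes of osteoclast control and of the hormone pathways, 32 in number, had 502 regions in the same windows. Of these 14 were f/f-only (2.79%) near 11 genes and 0 KO-only, and of 208 shared regions 27 stood higher in KO (12.98%) and 17 lower (8.17%). The backgrounds are those given for the 7 loci, 3.75%, 0.179%, 13.6% and 12.4%. Most called and f/f-only regions here lay outside the span of the named gene, up to 100 kb away, and other genes there are not given. Of the genes named, only Efnb2, Plxna1, Lgr6, Il6st, Nr3c1, Thra, Rgs2 and Crem had a called region inside the span. Wnt16 and Cyp27b1 had no peak within their span in any library, and Lgr5 only in f/f replicate 3. Among 9 secreted factors, 10 of 49 shared regions stood higher and 5 lower. Near Il34, a further ligand of the M-CSF receptor, 2 stood higher, the larger at 10.4 in f/f and 40.1 in KO (limma adjusted p = 0.000443), and 1 lower, at 34.8 and 17.3. The Il6 window had 1 higher at 44.9 and 73.5, Il11 2 higher, at 13.2 and 34.7 and at 3.99 and 21.6, and 1 lower at 97.6 and 94.6. Each of these cytokine genes, which act through gp130 in the case of Il6 and Il11, also had 1 f/f-only region, as did Pthlh, which encodes the second ligand of Pth1r and had 1 region higher at 15.8 and 33.5. Efnb2 had 2 higher (21.1 and 38.7, 36.7 and 51.2), Wnt16 1 higher (3.40 and 15.3) and Wnt5a 1 lower (32.1 and 16.5), whereas Sost, the sclerostin gene, had 1 higher (34.4 and 59.9) and 2 lower (71.6 and 52.9, 34.3 and 17.5).

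Among 11 receptors, 9 of 59 shared regions stood higher and 5 lower. Near Ptger4, a prostaglandin E2 receptor gene on chromosome 15, 1 region rose from 48.6 in f/f to 92.2 in KO (difference 1.52 ± 0.153, limma adjusted p = 1.3e-05) and 2 fell, from 47.8 to 26.2 and from 76.5 to 62.3. Lgr5 and Lgr6, relatives of Lgr4, had 1 higher region each, outside the span of Lgr5 at 83.8 and 97.1 and over the start of Lgr6 at 55.4 and 71.9. Lgr6 also had 1 lower, outside its span, at 38.7 and 16.01. Plxna1, a coreceptor gene for Sema3a, had 3 higher, the largest at 12.4 and 40.5, and 1 f/f-only region, and Il11ra1 had 3 higher, at 75.6 and 88.2, 88.1 and 95.3, and 60.5 and 73.3. The start of Il6st, which encodes gp130, stood lower at 92.8 and 85.0, and Ephb4 had 1 lower at 83.9 and 63.9. Csf1r, the receptor gene for M-CSF, had 3 f/f-only regions, all of low list percentile (1.93 to 26.4), and Tnfrsf11a, the receptor for RANKL, had no called region.

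Among 8 nuclear receptors and vitamin D enzymes, 7 of 86 shared regions stood higher and 6 lower. Rxra, the partner of Vdr, had 1 higher (67.3 and 78.3), 1 lower (32.7 and 13.4) and 1 f/f-only region, and Rxrb 1 lower (74.8 and 50.2). Near Cyp27b1, which encodes the enzyme that activates vitamin D, 2 stood higher, at 66.5 and 81.9 and at 5.94 and 27.6, and 2 were f/f-only, whereas the 3 shared regions near Cyp24a1, the vitamin D degrading enzyme, were not called. Nr3c1 had 1 higher (41.8 and 59.1), and Thra 1 higher (45.2 and 58.4), 4 lower, the largest at 58.9 and 26.5, and 1 f/f-only region. Of 4 genes of the PTH pathway, Rgs2, a regulator of G proteins that PTH induces, stood higher at its start (76.9 and 88.8, limma adjusted p = 0.00828), Crem had 1 lower region (59.3 and 45.5), Gnas, the gene of the stimulatory G protein, had 1 f/f-only region, and Nr4a2 had none.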

How the data were processed

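The ATAC-seq libraries, 3 of the control line and 3 of the KO line as labelled, were used as the deposited peak lists. The authors trimmed the reads, aligned them to mm10 with BWA and used MACS2 2.1.2 for peak calling (q-value under 0.05, 1 list per library). For each peak the deposited lists give a score, a ratio (the fold enrichment at its summit), a −log10 p and a −log10 q. The score and −log10 p columns were not tested. The lists hold no read counts and the depth behind them was not analysed here, so that DESeq2 on reads, which the authors used, was replaced by presence and by ranks within a list. How duplicate reads and blacklisted regions were treated is not given in the sources used here.

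All peaks lay on chromosomes 1 to 19, X and Y. Regions were formed by merging, and each region took its highest peak per library. Gene spans, starts and promoter sequences came from RefSeq tables of GRCm38.p6. Entries for 6 of the 7 genes were found in the promoter table, and Tnfrsf11b was described by its span. Counts per locus were tested with an exact two-sided permutation test (20 assignments of the libraries to the groups), with a smallest p of 0.1. Ranks of shared regions were tested as normal scores with limma 3.58.1 (eBayes with a trend) in R 4.3.3, adjusted over all regions at 0.05, and the rest was done in Python 3.11.15 with numpy 2.4.6 and pandas 2.3.3. In a run on simulated ranks for the KO against f/f comparison of 29849 regions, with 200 moved, 50% of regions moved by 1 normal score and 7% of those moved by 0.5 were called, as was 1 that was not moved. In the data 7772 regions were called, so that the adjustment was less strict there than in the simulation. The simulated shares thus do not give how often a difference of such a size was called in the data.

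The members, the list of other genes and the markers were chosen with earlier results of these data known. Named by rule were every region at a start, every group-specific region, every called region and the region of highest mean standing per locus, and from the list of other genes those with a group-specific or called region. The values of 1 gene of that list are not reported here. The regions with a peak in KO replicates 1 and 2 only, those called without KO replicate 3, and those named as not called were added with their values known. Other settings tried were a −log10 q of 5 or more, 50% overlap for merging, fixed windows around summits, equal peak numbers (32958 per list), a peak in at least 2 of 3 libraries, ranking by fold, the mean of the peaks of a region, extensions of 50 kb and 3 kb, each library left out in turn, and the replicate number as a block.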

Additional observations from a re-analysis of the deposited data

How the results depend on the processing

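The f/f-only count of 4 at the 7 loci became 0 with equal peak numbers or with an extension of 50 kb or 3 kb, and 14 with a peak in at least 2 of 3 libraries. With equal peak numbers the f/f peaks of those 4 regions were themselves cut. The f/f-only count ranged from 4 to 9 with 1 library left out. The KO-only count of 0 became 1 with fixed windows around summits, 2 with equal peak numbers and 3 with a peak in at least 2 of 3 libraries, and ranged from 0 to 3 with 1 library left out. Of shared regions, 11 stood higher and 7 lower in KO. These counts became 3 and 2 by fold, 6 and 4 with an extension of 50 kb, and 1 and 2 with 3 kb, where fewer regions belong to a locus. With 1 library left out they ranged from 9 to 15 and from 4 to 8. The cause of the change by fold was not tested.

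With equal peak numbers the difference in regions with a peak turned to 0.333 for Tnfsf11, 1.00 for Tnfrsf11b, 1.00 for Csf1 and 2.33 for Vdr. With 1 library left out that of Vdr ranged from −6 to 2. Regions that were not called also changed sign. The Pth1r start became −0.0475 at a −log10 q of 5 or more and −0.265 by fold, and ranged from −0.0677 to 0.0958 with 1 library left out. The Csf1 start became 0.126 by fold, and ranged from −0.137 to 0.00969, and the Vdr start from −0.000147 to 0.362, with 1 library left out. None of the 18 called regions changed sign under any alternative in which it could be ranked.

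Libraries with the same replicate number did not deviate together (correlations of their deviations 0.0486, −0.1224 and −0.1377), so the numbers were not taken to pair them. With the replicate number as a block, 12 regions stood higher and 7 lower, the 18 called regions remained called, the region 9.81 kb downstream of the Pth1r start was added (limma adjusted p = 0.0147, against 0.0786 without the block), and 7725 of all regions were called against 7772. The mean paired difference per locus equals the unpaired one by arithmetic. The exact sign-flip p ran from 0.25, the smallest that 3 pairs can give, to 1, so this test could not pass at any locus. The lists themselves do not give depth. The paper lists more uniquely mapped reads for KO replicate 3 than for f/f replicate 1, whose peak list was longer. Why the list of KO replicate 3 is short was not tested, and its length limits what its missing peaks show. At Tnfsf11, KO replicate 3 alone had no region with a peak also when all lists were cut to the same length. The reason was not tested.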
